A study of Mus musculus with 9 samples.

Results

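The expression of p53 and 9 of its best known target genes was described in B16 cells, a mouse melanoma cell line. The 10 genes were Trp53, which encodes p53, and Cdkn1a, Mdm2, Ccng1, Phlda3, Bax, Bbc3, Sesn1, Zmat3 and Gadd45a. They were taken by symbol, and all 10 were found among the 22972 gene names of the files. RNA was sequenced in 9 libraries of cells labelled as WT in genotype and collected on day 3. The 3 CTL libraries came from cells on the PDMS film without straining, and the 3 MS libraries from cells under cyclic straining for 72 h. The last 3 libraries, called Blebb. here, came from cells given 100 ng/mL of blebbistatin, an inhibitor of myosin II, for 72 h. Their labels name the inhibitor alone, while the paper's methods pair it with straining. For proliferation, the paper also cites cells given inhibitors without straining. Both readings are thus possible for each comparison with this group.

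p53 is a transcription factor that accumulates and becomes active when DNA is damaged or when oncogenes, ribosome faults or other stresses act on a cell. Its targets stop the cell cycle, repair DNA, alter metabolism or start apoptosis. Mdm2, itself a target, marks p53 for degradation and so closes a feedback loop, and the product of Arf at the Cdkn2a locus blocks Mdm2. In melanoma, the p53 gene is less often mutated than in many other tumors, and the pathway is often weakened through Cdkn2a or the Mdm2 family.

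The DNA before the start sites of the members is shown because p53 acts on its targets through a short element. The element is a pair of 10-base copies of a consensus that reads the same on both strands. Upstream windows of 250 bases before a RefSeq start site (build GRCm38.p6) were given for 9 of the 10 members, with 13 windows in all. Zmat3 was not matched. The p53 10-base consensus was present in 7 of the 13 windows (53.8%), each of a different gene, and in 7.13% of the 32851 windows of all genes. A match here is 1 copy and not the pair. The members were chosen as known targets, so that these shares are no test of enrichment. The matching bases are in capitals in the stretches below, each printed 5′ to 3′ on the strand of its gene with 10 bases on either side.
Trp53 (chr11:69580274-69580303, + strand): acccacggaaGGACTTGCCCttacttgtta
Mdm2 (chr10:117710925-117710954, - strand): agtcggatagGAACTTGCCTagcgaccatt
Ccng1 (chr11:40755452-40755481, - strand): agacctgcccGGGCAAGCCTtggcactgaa
Gadd45a (chr6:67037428-67037457, - strand): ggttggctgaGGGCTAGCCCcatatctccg
Bax (chr7:45467080-45467109, - strand): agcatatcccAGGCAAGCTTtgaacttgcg
Sesn1 (chr10:41887256-41887285, + strand): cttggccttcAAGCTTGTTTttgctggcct
Cdkn1a was the only one of these genes with more than 1 match. Its window at the upstream one of 2 start sites held 2 matches, the first 73 to 64 bases before the start (GGACTAGCTT) and the latter at the 5′ end of a 20-base stretch in which CATG is followed by CATG after 6 bases.
Cdkn1a (chr17:29090918-29090957, + strand): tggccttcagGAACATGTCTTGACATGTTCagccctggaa
The 20 bases in capitals end 32 bases before that start site, and 18 of the 20 are the same when read on the opposite strand. The downstream start site of Cdkn1a lies 2790 bases further on, and its own window held no match. The sequence CATGNNNNNNCATG, where N is any base, was searched on both strands, which are the same for this pattern, and occurred in 1 of the 13 windows and in 0.49% of all windows. In Cdkn1a it overlaps the latter of the 2 consensus matches. A match is a description of the letters and was not tested as a binding site, and the windows of Phlda3 and Bbc3 without a match say nothing of more distant sites.

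The values are FPKM as the authors deposited them, a fragment count normalised to transcript length and to the mapped total of each library. All 10 members passed the minimum mean of 1 FPKM over the 9 libraries and were among the 10109 genes tested. Sequencing depth is unknown, so the error of a value is given by how far libraries of a group lay apart. The labels call the replicates parallel experiments and do not say whether they were separate cultures, so that p-values measure the spread between these libraries. The marker genes of pigment cells were abundant in each library (7 genes, summed level from 7444 to 12933 FPKM). Those of keratinocytes summed to at most 0.0314 FPKM (6 genes, with Krt1, Krt10, Trp63 and Dsg3 at 0 in all libraries) and those of fibroblasts to at most 0.567 FPKM (6 genes, with Dcn, Lum and Thy1 at 0). Those of macrophages summed to between 2.13 and 4.32 FPKM (6 genes, with Ptprc at 0). The first principal component of all genes held 70.4% of the variance and set CTL replicate 1 and Blebb. replicate 2 apart from the others. These 2 libraries and MS replicate 3 also shared high levels of stress response genes, and they were left out together as an alternative.

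The members spanned a wide range of levels. Bax was the most abundant, with a mean of 193 FPKM over the 9 libraries, followed by Cdkn1a (178 FPKM), Phlda3 (99.1 FPKM), Trp53 (69.5 FPKM) and Ccng1 (36.4 FPKM). Zmat3 (10.8 FPKM), Mdm2 (9.70 FPKM), Gadd45a (6.48 FPKM), Bbc3 (4.97 FPKM) and Sesn1 (4.17 FPKM) were lower. Bax and Cdkn1a were above 96% of the genes tested in level (96.5% and 96.2%), and Sesn1 was above 26.2%. The order was firm where values did not overlap. Cdkn1a was above Phlda3, and Ccng1 above Zmat3, in 9 of 9 libraries and with separate ranges. Phlda3 was above Trp53, and Trp53 above Ccng1, in each of the 9 libraries, although their ranges overlapped. Bax and Cdkn1a could not be ordered, since Bax was higher in 7 of 9 libraries, nor could Zmat3 and Mdm2 (6 of 9), Mdm2 and Gadd45a (7 of 9), Gadd45a and Bbc3 (8 of 9) or Bbc3 and Sesn1 (6 of 9).

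**Figure D1:**
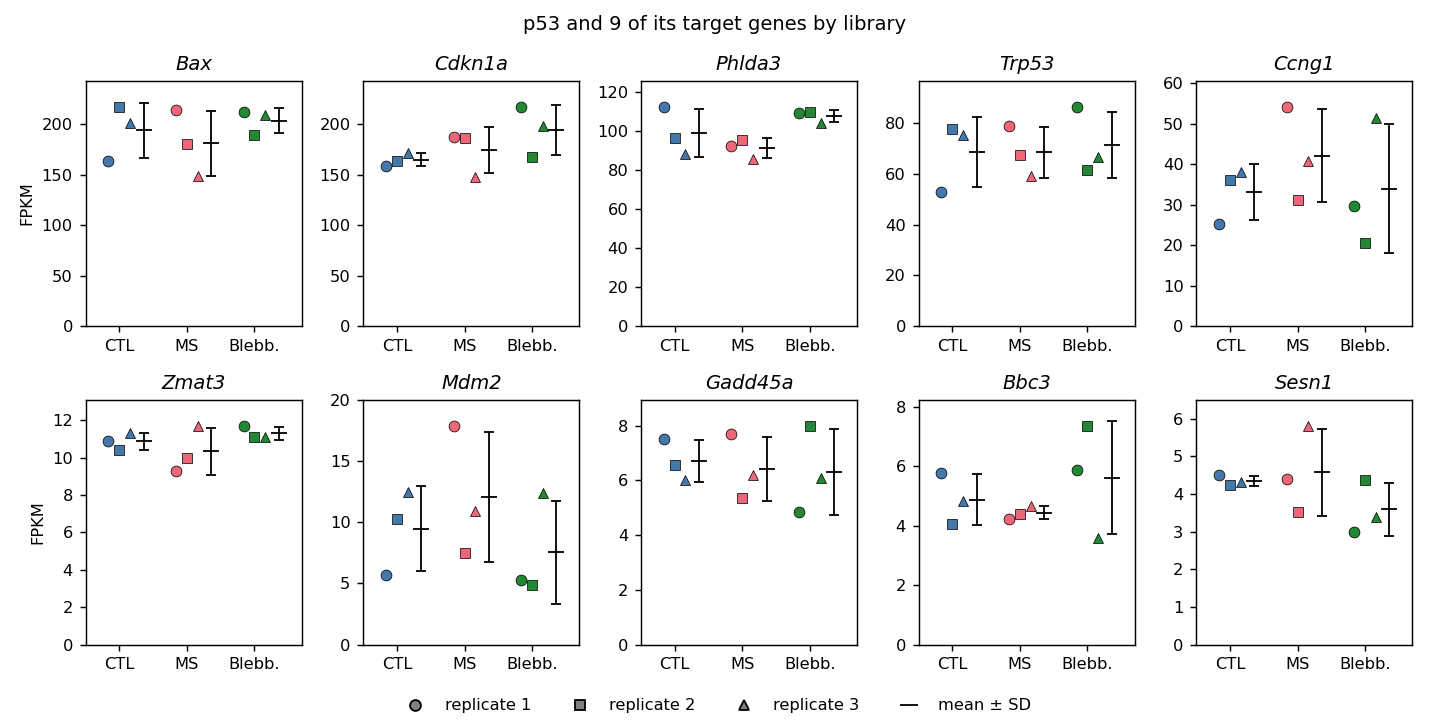
FPKM of each member (vertical axis, from 0, its own scale in each panel) in the 3 libraries of CTL, MS and Blebb., with the mean and SD beside them in black. The groups overlap in every panel except for Phlda3, where the 3 Blebb. libraries lie above the 3 MS libraries, and Mdm2 and Ccng1 vary most between the libraries of one group.

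Trp53 itself was expressed in each library. It was at 52.8, 77.6 and 75.5 FPKM in CTL, at 78.9, 67.5 and 59.0 FPKM in MS and at 86.3, 61.6 and 66.6 FPKM in Blebb. (replicates 1 to 3). The lowest value was in CTL replicate 1 and the highest in Blebb. replicate 1, and the 3 groups overlapped. The group means were 68.6 ± 13.7, 68.4 ± 10.0 and 71.5 ± 13.1 FPKM (SD, n = 3). The 3 groups accounted for 1.86% of the variance of Trp53 on the log2(FPKM + 1) scale, the smallest share among the members. GENCODE M21 lists a processed pseudogene, Trp53-ps, that is not analysed here, and reads shared with it could count toward Trp53. In sequencing of whole cultures, fewer cells with a transcript and less of it per cell cannot be told apart.

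Mdm2, the ubiquitin ligase that limits p53, had the widest range of the members. It was at 5.68, 10.3 and 12.5 FPKM in CTL, at 17.9, 7.47 and 10.9 FPKM in MS and at 5.32, 4.87 and 12.4 FPKM in Blebb. The highest library was 3.67 times the lowest, a wider range than that of 88.9% of the genes tested. The low and the high values were spread over the 3 groups, which overlapped. Ccng1, cyclin G1, which takes part in a feedback on p53 through Mdm2, was next, with a range of 2.64 times. It was at 25.3, 36.2 and 38.2 FPKM in CTL, at 54.1, 31.2 and 40.9 FPKM in MS and at 29.8, 20.5 and 51.5 FPKM in Blebb. The same library, Blebb. replicate 2, was lowest in both genes, and MS replicate 1 was highest in both.

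Cdkn1a encodes p21, the inhibitor of cyclin-dependent kinases through which p53 stops cells in G1. It was at 159, 164 and 172 FPKM in CTL, at 188, 187 and 148 FPKM in MS and at 217, 168 and 198 FPKM in Blebb. The group means of 165 ± 6.21, 175 ± 22.8 and 194 ± 24.8 FPKM (SD, n = 3) differed by less than the SD of MS or Blebb. for neighbouring groups. CTL replicate 3 lay above Blebb. replicate 2, so that no group stood apart. Gadd45a, a stress sensor that binds PCNA and p21, was at 7.52, 6.58 and 6.02 FPKM in CTL, at 7.69, 5.35 and 6.21 FPKM in MS and at 4.86, 8.0 and 6.08 FPKM in Blebb. Its lowest and highest values were both in Blebb.

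Among the apoptosis genes, Bax, which opens the outer mitochondrial membrane, was at 164, 217 and 201 FPKM in CTL, at 214, 180.3 and 149 FPKM in MS and at 212, 189.5 and 209.6 FPKM in Blebb. Bbc3 encodes Puma, a BH3-only protein that frees Bax from its inhibitors, and was at 5.77, 4.04 and 4.82 FPKM in CTL, at 4.24, 4.4 and 4.66 FPKM in MS and at 5.88, 7.36 and 3.58 FPKM in Blebb. The Blebb. libraries held both the lowest and the highest Bbc3 value. Phlda3, which restrains Akt through its PH domain, was at 112, 96.1 and 88.2 FPKM in CTL, at 92.3, 95.4 and 85.3 FPKM in MS and at 109, 109.8 and 104 FPKM in Blebb. Its Blebb. libraries were all above its MS libraries, while CTL spanned both.

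Sesn1, a sestrin that restrains mTORC1, was at 4.50, 4.25 and 4.31 FPKM in CTL, at 4.39, 3.53 and 5.81 FPKM in MS and at 3.00, 4.36 and 3.40 FPKM in Blebb. Its CTL libraries lay close together (SD 0.134 FPKM), while MS replicate 3 was above and Blebb. replicate 1 below all others. Zmat3, an RNA-binding zinc finger protein, was the most even of the members. It was at 10.9, 10.4 and 11.3 FPKM in CTL, at 9.29, 10.0 and 11.7 FPKM in MS and at 11.7, 11.1 and 11.1 FPKM in Blebb., and 4.25% of the genes tested had a smaller ratio of the highest to the lowest library than its 1.26.

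The first comparison asked whether cyclic straining changed the transcript level of Trp53 or of p53 target genes. The amount and activity of the p53 protein are not measured by these libraries. In MS against CTL, 0 of the 10 members passed the threshold of 0.05 (adjusted p = 1.00 for each, limma, Benjamini-Hochberg adjustment across the genes tested). The number at an unadjusted p under 0.05 was also 0, and the share of all genes called was 0.0% at the adjusted and 0.158% at the unadjusted threshold. The log2 fold changes, on the scale of FPKM + 1 that understates the change of low genes, lay between -0.11 (Phlda3) and 0.32 (Ccng1), with 5 above 0 and 5 below. Their median was -0.028, beside -0.0018 over all genes tested. None of the 10 differences was larger than its standard error. The groups overlapped for all 10 members, beside 3.17% of all genes without overlap (0.524% higher and 2.64% lower in MS). Trp53 differed by 0.0071 with a standard error of 0.19, and the 95% interval of its fold change was 0.741 to 1.36. Cdkn1a differed by 0.071 (standard error 0.14, interval 0.844 to 1.31 in fold). The intervals of Mdm2 (0.65 to 2.34 in fold) and Ccng1 (0.746 to 2.08 in fold) included a doubling, whereas those of the other 8 members did not. The direction of 6 members turned when single libraries were left out. Trp53 was at -0.17 without CTL replicate 1 and Mdm2 at -0.0014 without MS replicate 1.

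**Figure D2:**
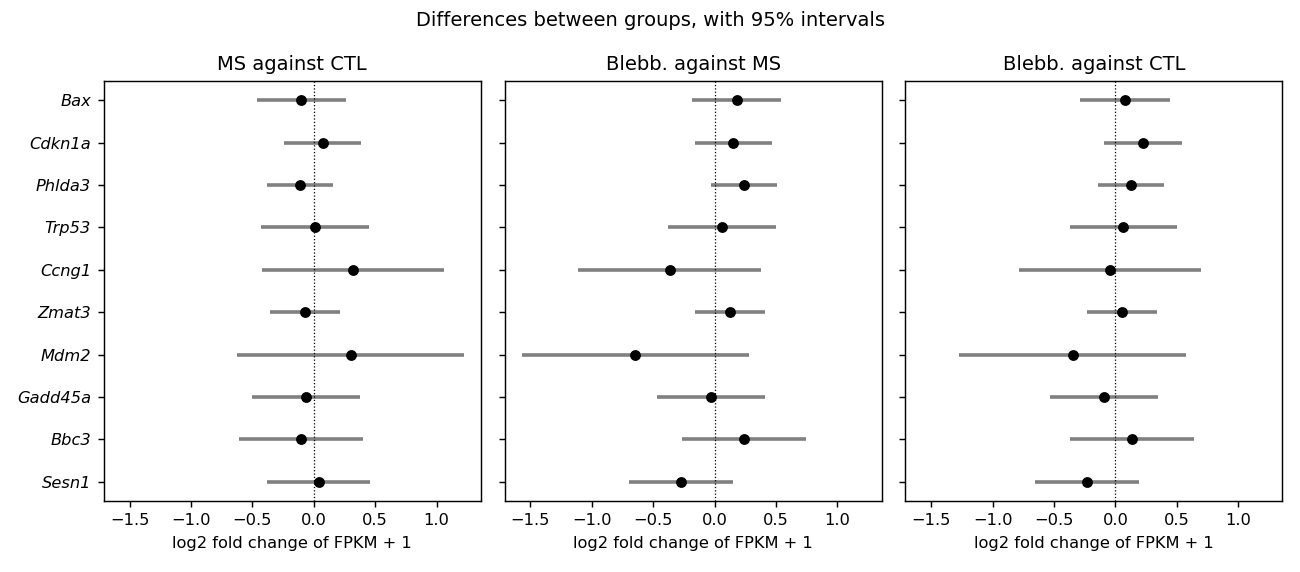
Log2 fold change of FPKM + 1 (horizontal axis, points) of each member in the 3 comparisons, with 95% intervals from limma (bars) and 0 as a dotted line. Every interval includes 0, and those of Mdm2 and Ccng1 are the widest in each panel.

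The next comparison asked whether blebbistatin altered these genes relative to strained cells. In Blebb. against MS, again 0 of 10 members passed (adjusted p from 0.897 to 0.98, limma with Benjamini-Hochberg adjustment), and 0 had an unadjusted p under 0.05, beside 0.0% and 1.25% of all genes tested. Phlda3 came nearest. It was higher in Blebb. by 0.24 on the log2 scale (standard error 0.12, interval 0.982 to 1.42 in fold, unadjusted p = 0.0725, limma), in means of 108 ± 2.82 against 91.0 ± 5.15 FPKM (SD, n = 3). It was the 1 member whose groups did not overlap, in a comparison where 3.73% of all genes did not overlap (3.05% higher and 0.683% lower in Blebb.). Phlda3 is GC-rich (62.6%), and its difference was 0.066 once the GC trend of each library was removed. Without a minimum level its unadjusted p was 0.0404 (adjusted p = 0.932, limma). Mdm2 had a log2 fold change of -0.65 (standard error 0.41, interval 0.337 to 1.21 in fold) and Ccng1 of -0.36 (standard error 0.33). Sesn1 had a log2 fold change of -0.27 and Gadd45a of -0.030, while Bbc3 (0.24), Bax (0.18), Cdkn1a (0.15), Zmat3 (0.125) and Trp53 (0.058) were above 0. None of these passed. The median over the 10 members was 0.091, beside -0.0059 over all genes. Single libraries set the size of the 2 widest differences. Without Blebb. replicate 3 Mdm2 was at -1.03 and Ccng1 at -0.71, with unadjusted p of 0.0274 and 0.0346 and adjusted p = 0.45 for both (limma). Bbc3 was then at 0.48 (unadjusted p = 0.0275, limma). Without Blebb. replicate 2 Ccng1 was at -0.064, and without MS replicate 1 Mdm2 was at -0.34.

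Blebb. was also compared with CTL. The 3 comparisons share libraries, so that their values are not independent. Here 0 of 10 members passed (adjusted p = 1.00 for each, limma with Benjamini-Hochberg adjustment), and 0 had an unadjusted p under 0.05, beside 0.0% and 0.089% of all genes. Cdkn1a had the highest log2 fold change, 0.22 with a standard error of 0.14 (interval 0.938 to 1.45 in fold). Without CTL replicate 1, MS replicate 3 and Blebb. replicate 2 it was 0.30 (unadjusted p = 0.0363, adjusted p = 1.00, limma). It stayed between 0.14 and 0.325 with each library left out. The lowest values were those of Mdm2 (-0.35, standard error 0.41) and Sesn1 (-0.23, standard error 0.19). Trp53 was at 0.065 (interval 0.771 to 1.42 in fold), and the other members lay between -0.094 (Gadd45a) and 0.14 (Bbc3). The groups overlapped for all 10 members, beside 2.08% of all genes without overlap (0.93% higher and 1.15% lower in Blebb.). The median of the members was 0.061, beside -0.013 over all genes. A test of any difference among the 3 groups gave adjusted p = 1.00 for each member (limma), with the smallest unadjusted p in Phlda3 (0.182, limma), where 0.257% of all genes had an unadjusted p under 0.05 and 0.0% passed the adjusted threshold. The groups accounted for 52.9% of the variance of Phlda3, 34.1% of that of Cdkn1a, 32.5% of Sesn1 and 28.7% of Zmat3. The median share was 20.1% over the members and 12.7% over all genes tested, and 3 groups of 3 values that do not differ give 25% on average. That 25% is a mean, so that the medians cannot be judged against it. The other 6 members were below 25%.

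Mdm2 and Ccng1 moved with the GC trend of the libraries. In some libraries GC-rich genes lay above their means over the 9 libraries, and in others below. The r of these deviations with GC content, over 9663 genes that are not independent, ran from -0.642 in MS replicate 1 to 0.547 in Blebb. replicate 1. Ccng1 has the lowest GC content of the members (40.8%) and Mdm2 is next (46.2%), while Bbc3 (65.2%), Bax (63.5%) and Phlda3 (62.6%) are highest. The 3 libraries with r above 0.4 were CTL replicate 1, Blebb. replicate 1 and Blebb. replicate 2, and these held the 3 lowest values of Mdm2 and of Ccng1. MS replicate 1, Blebb. replicate 3 and CTL replicate 3 had r from -0.642 to -0.423 and held the 3 highest values of Mdm2. With the GC trend removed, the range of Ccng1 over the 9 libraries narrowed from 1.36 to 0.497 on the log2 scale, that of Mdm2 from 1.68 to 1.17 and that of Bbc3 from 0.867 to 0.501. The range of Zmat3 widened from 0.308 to 0.611 and that of Bax from 0.537 to 0.709. In Blebb. against MS, Ccng1 was then at -0.038 with a standard error of 0.15, while Mdm2 kept a value of -0.47 (standard error 0.29, adjusted p = 0.999, limma). In MS against CTL the values were 0.11 for Ccng1 and 0.21 for Mdm2.

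**Figure D3:**
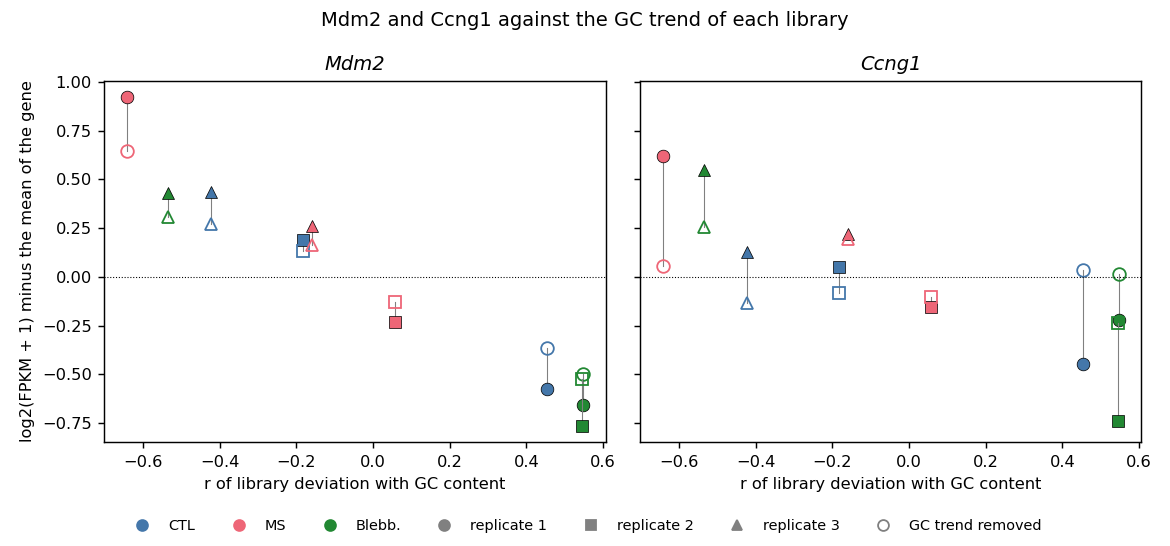
Deviation of each library from the mean of Mdm2 (left) and Ccng1 (right) on the log2(FPKM + 1) scale against the correlation of that library's deviations with GC content over all genes tested with a GC value. Filled symbols are the values as deposited and open symbols those with the GC trend removed, joined by a line. The filled points are high at the left and low at the right in both genes, and the open points of Ccng1 span a range of 0.497 in place of 1.36.

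The libraries of the same group also differed in stress genes. Atf4, Ddit3, Trib3, Asns and Chac1, genes of the integrated stress response that amino acid shortage and ER stress induce, had their 3 highest values in CTL replicate 1, MS replicate 3 and Blebb. replicate 2. Ddit3, the pro-apoptotic factor Chop, was between 99.1 and 137 FPKM in these and between 18.5 and 45.7 FPKM in the other 6. Psat1, the sixth gene of that list, did not share the pattern. Trp53 had its 3 lowest values in the same libraries, at 52.8, 59.0 and 61.6 FPKM, against 66.6 to 86.3 FPKM in the others. It was the 1 member of the 10 with separate ranges, beside 16.1% of all genes tested that were lower and 15.8% that were higher in these 3 libraries without overlap. The libraries had been singled out from the same data, and the count is no more than the share over all genes, so that nothing about the members is read from it. Cdkn1a, which stress can also induce without p53, was between 148 and 168 FPKM in the 3 libraries and between 164 and 217 FPKM in the others. Left out together, these libraries changed no adjusted call among the members. Their part in the values of Trp53 was not tested.

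**Figure D4:**
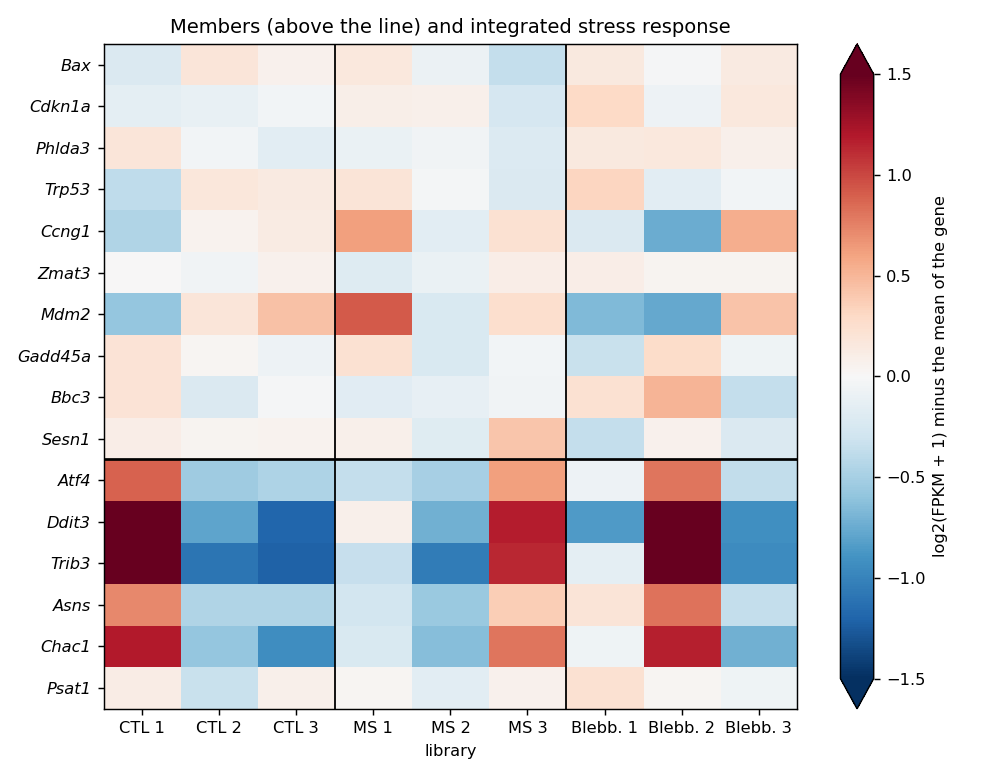
Difference of log2(FPKM + 1) from the mean of each gene (color, with values past 1.5 in either direction drawn in the end color) in the 9 libraries, for the 10 members above the line and 6 integrated stress response genes below it. The stress genes apart from Psat1 are red in CTL 1, MS 3 and Blebb. 2, where Trp53 is blue, and the rows of Mdm2 and Ccng1 follow a different order of libraries.

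The genes that act on p53 were described from a further list. Of 25 symbols, 24 were found and 20 reached the minimum. The number past the adjusted threshold was 0 in the 3 comparisons, as was the number at an unadjusted p under 0.05 (limma). Cdkn2a, the locus of Arf, and Trp63, a p53 relative, were listed at 0 in all 9 libraries, and Trp73, the other relative, reached at most 0.0155 FPKM. Mdm4, the partner of Mdm2, averaged 1.67 ± 0.512 in CTL, 2.14 ± 1.19 in MS and 1.39 ± 0.817 in Blebb. (FPKM, SD, n = 3). Npm1, nucleophosmin, a nucleolar protein that binds Arf, had the highest log2 fold change of the 20 genes in MS against CTL (0.59, standard error 0.69) and the lowest in Blebb. against MS (-0.76, standard error 0.69). Its values ran from 44.0 FPKM in Blebb. replicate 2 to 295 FPKM in MS replicate 1. Rpl5, a ribosomal protein that can bind Mdm2, was at 0.21 in MS against CTL. The ubiquitin ligase Cop1 (-0.53) and the deubiquitinase Usp7 (-0.40) were the next lowest in Blebb. against MS among genes averaging 5 FPKM or more, and with the kinase Hipk2 (-0.26) they were the lowest of such genes in Blebb. against CTL (Cop1 -0.34, Usp7 -0.33). Of the genes under 5 FPKM, the checkpoint kinases Chek1 (-0.61) and Atm (-0.48) in Blebb. against MS and the acetyltransferase Ep300 (-0.315) in Blebb. against CTL lay between the values of these genes or that of Npm1, and they were named after their values were seen. In Blebb. against MS, 17 of the 20 genes were below 0 and 3 above, with a median of -0.205. Over all genes tested, 49.0% were above 0 and the median was -0.0059. In Blebb. against CTL 15 of the 20 were below 0 and 5 above, with a median of -0.19. All genes had 46.0% above 0 and a median of -0.013 there. In MS against CTL 9 were below 0 and 11 above, with a median of 0.056, beside 49.5% above 0 and -0.0018 over all genes. The list was not summarised with the GC trend removed. In Blebb. against CTL the groups did not overlap for 3 genes, all lower in Blebb., beside 1.15% of all genes lower in this way. These were Trp53bp1 (-0.25) and Trp53bp2 (-0.22), which encode proteins that bind p53, and Ppp1r13l (-0.19), the p53 inhibitor iASPP, and none passed (adjusted p = 1.00, limma). Ppp1r13l was also the 1 gene of the list lower in MS than in CTL without overlap (-0.105), beside 2.64% of all genes. These 3 genes were named after their values were seen.

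A list of 51 other p53 targets held 41 genes above the minimum, and 0 passed the adjusted threshold in any comparison (smallest adjusted p = 0.897, limma). At an unadjusted p under 0.05 there were 0 in MS against CTL, 2 in Blebb. against MS and 1 in Blebb. against CTL, all higher in Blebb., beside 0.158%, 1.25% and 0.089% of all genes tested. One of them was Bcl2l1, which encodes the survival protein Bcl-xL and is thus opposed in action to Bax and Bbc3. Bcl2l1 was at 30.4, 30.9 and 30.9 FPKM in CTL, at 25.9, 31.5 and 25.2 FPKM in MS and at 40.7, 37.1 and 36.2 FPKM in Blebb. Its Blebb. libraries were above all others, with log2 fold changes of 0.46 against MS (standard error 0.12, unadjusted p = 0.00411, adjusted p = 0.897, limma) and 0.295 against CTL (unadjusted p = 0.0362, adjusted p = 1.00, limma). The other was Bid, a BH3-only protein that activates Bax, named here after its values were seen. Bid was at 14.2, 13.7 and 13.7 FPKM in CTL, at 13.8, 11.1 and 12.4 FPKM in MS and at 16.2, 17.8 and 13.7 FPKM in Blebb., with a log2 fold change of 0.33 against MS (unadjusted p = 0.0411, adjusted p = 0.897, limma), and its groups overlapped. Plk3, a stress kinase, was at 0.34 in Blebb. against MS (unadjusted p = 0.0662, limma) and also did not overlap, and it was at 0.19 against CTL. Pml was the remaining gene of the list without overlap in Blebb. against MS (0.19, higher in Blebb.), although its nearest libraries, Blebb. replicate 3 and MS replicate 3, were both at 15.6 FPKM as rounded. The share of all genes higher in Blebb. than in MS without overlap was 3.05%.

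In MS against CTL, Sesn2 (-0.23), Ptp4a3 (-0.21) and Pml (-0.20) were the lowest of that list. Pcna (0.22), the sliding clamp of DNA replication, was the highest among its genes averaging 5 FPKM or more, and Trp53inp1 (0.465), Polk (0.27) and Ercc5 (0.25), all under 5 FPKM and named after their values were seen, lay above it. Pml, which organizes the nuclear bodies where p53 is modified, was the 1 gene of this list whose groups did not overlap here, although the highest MS and the lowest CTL library were both at 15.6 FPKM as rounded. The share of all genes lower in MS without overlap was 2.64%. Sesn2, a sestrin that Atf4 also induces, had its 3 highest values where the stress genes were high. These were CTL replicate 1 (27.7 FPKM), MS replicate 3 (21.3 FPKM) and Blebb. replicate 2 (29.9 FPKM). Its relative Sesn1 was highest in MS replicate 3 (5.81 FPKM) and CTL replicate 1 (4.50 FPKM), with Blebb. replicate 2 (4.36 FPKM) just below MS replicate 1 (4.39 FPKM). Of the 14 metabolism targets, 9, Sesn2 among them, were higher in these 3 libraries without overlap and 1 was lower. The shares of all genes tested were 15.8% and 16.1%. The libraries had been singled out from these data, and the part of Atf4 was not tested. Sesn2 had a log2 fold change of 0.39 in Blebb. against MS. Aen, an apoptosis-enhancing nuclease, was at 0.24 in Blebb. against CTL. Several classical apoptosis targets were barely present. Pmaip1, the gene of Noxa, was listed at 0 in all libraries, and Fas reached at most 0.0914 FPKM and Perp 0.0413 FPKM. Other apoptosis targets were abundant, such as Rps27l (mean of 373 FPKM over the 9 libraries) and Ei24 (89.8 FPKM). Of the apoptosis targets, 11 of 18 reached the minimum, beside 10109 of the 22972 genes of the files. The numbers were 9 of 9 for the cell cycle arrest targets, 8 of 10 for those in DNA repair and 13 of 14 for those in metabolism.

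The genes most like a member in their pattern over the 9 libraries were sought among the 7004 genes that averaged 5 FPKM or more. Likeness was the root mean square difference of log2(FPKM + 1) after each gene was brought to a mean of 0 and an SD of 1, so that 0 is the same pattern. For Mdm2, these were Dhx15, a splicing helicase (0.0957), Chuk, a kinase of the NF-κB pathway (0.0974), and Nek7, a mitotic kinase (0.105), where the median of all genes was 1.43. For Trp53, they were Cfap20 (0.159), Rbm22, a splicing factor (0.213), and Noc4l, a nucleolar protein (0.244). Cdkn1a had less close neighbours, Otulin, a deubiquitinase (0.308), Banp (0.321) and Ppia, cyclophilin A (0.412). None of the 9 was on the lists of p53 genes. Those lists held only 24 and 51 of the 22972 genes of the files, so that nothing about the members is read from this. The closest of 7004 genes lie below the median by the way they were chosen. With 70.4% of the variance on 1 component, close neighbours can arise from a pattern common to many genes. A shared control of like genes was not tested.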

How the data were processed

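RNA of B16 cells was extracted with Trizol and sequenced on an Illumina platform, and the authors deposited 1 FPKM value per gene name in each of 9 libraries, 3 for each of CTL, MS and Blebb. The column of CTL replicate 1 carries the name of the sample as its header and was read as FPKM. Aligner, counting program, annotation and strand setting are not given in the sources used here, and the submitters' processing notes name GRCm38 and mm10. The depth is unknown, since ratios of low values between libraries fell on no common step (no log2 bin of width 0.02 held more than 2.14%). Groups and replicate numbers came from the titles.

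After a log2(FPKM + 1) transform, the 10109 genes that averaged 1 FPKM or more were fitted in limma 3.58.1 (R 4.3.3) with lmFit on 3 groups and eBayes with a trend, two-sided, with Benjamini-Hochberg adjustment over these genes. The fit was run on simulated data in which each gene and library varied independently. Those data lacked the trends that genes share here, so that the run does not show how the fit behaves under them. All members were above the minimum, so the exact permutation test planned for lower genes was not used. GC content was that of the longest GENCODE M21 transcript of a symbol (95.6% of the genes tested), and its trend was removed by loess with a span of 0.5. The members were given by symbol. The members and lists were chosen with earlier results of these data known. By rule, the genes named besides members were the 3 highest and 3 lowest of the p53 lists in each comparison (among genes averaging 5 FPKM or more). The stress response list, the cell type markers and the 3 genes most like Trp53, Cdkn1a and Mdm2 were also named by rule. Mdm4, Cdkn2a, Trp63, Trp73, Pmaip1, Fas, Perp, Rps27l and Ei24 were named outside it. So were the genes said to be named after their values were seen. A gene model on the same strand, Gm45808, overlaps Bax over 915 bases and is listed at 0, and noncoding genes overlap Cdkn1a, Gadd45a and Sesn1. Plots were drawn with matplotlib 3.10.9. Alternatives were another pseudocount, another or no minimum, other scalings, the GC trend removed, no trend in eBayes, the compared groups alone, a replicate block and libraries left out. The removal of the GC trend together with CTL replicate 1, MS replicate 3 and Blebb. replicate 2 was added after the data had been seen.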

Additional observations from a re-analysis of the deposited data

How the results depend on the processing

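The number of members past the adjusted threshold was 0 in each comparison under every alternative run. Of the values of single members under the alternatives that kept all libraries or left out 3, 279 kept their direction and 15 turned. Another or no minimum, no trend in eBayes, the compared groups alone and a replicate block leave each log2 fold change as it was. Their values could not turn and are among the 279, so that this count is no measure of stability. With quantile normalization Sesn1 was at -0.019 in MS against CTL and Gadd45a at 0.0654 in Blebb. against MS. With the GC trend removed, Phlda3 (0.0113), Bax (0.026) and Bbc3 (0.0315) turned in MS against CTL, Trp53 (-0.021), Bax (-0.000819) and Gadd45a (0.00337) in Blebb. against MS, and Ccng1 (0.0723) in Blebb. against CTL. Without CTL replicate 1, MS replicate 3 and Blebb. replicate 2, Trp53 (-0.0677), Phlda3 (0.027), Sesn1 (-0.0942) and Gadd45a (0.025) turned in MS against CTL, and Trp53 (-0.0125) and Ccng1 (0.0749) in Blebb. against CTL.

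Both changes together, chosen after seeing the data, turned 12 of 30 values: Trp53 (-0.00284), Phlda3 (0.117), Bax (0.00454), Bbc3 (0.0682), Sesn1 (-0.0427) and Gadd45a (0.0765) in MS against CTL, Ccng1 (0.159), Bax (-0.011) and Bbc3 (-0.0402) in Blebb. against MS, and Trp53 (-0.000368), Ccng1 (0.245) and Bax (-0.00642) in Blebb. against CTL. The cause was not tested.

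The number of members at an unadjusted p under 0.05 moved from 0 to 1 in Blebb. against MS without a minimum (Phlda3), to 1 in Blebb. against CTL without the 3 libraries (Cdkn1a), and to 1 in Blebb. against CTL and 1 among the 3 groups when the GC trend was removed as well (limma). With single libraries left out it ranged from 0 to 3 in Blebb. against MS, where the 3 came without Blebb. replicate 3, and was 0 elsewhere. The number of all genes past the adjusted threshold then ranged from 0 to 1 in MS against CTL, in Blebb. against MS and among the 3 groups, where the 1 came without MS replicate 2, and was 0 in Blebb. against CTL.

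Single libraries left out turned 20 values, while 250 kept their direction. Leaving out a library of the group outside a comparison does not alter its log2 fold changes. Such values could not turn and are among the 250. In MS against CTL, Trp53 ranged from -0.168 to 0.108, Mdm2 from -0.00142 to 0.576, Bax from -0.23 to 0.0288, Bbc3 from -0.209 to 0.0034, Sesn1 from -0.114 to 0.18 and Gadd45a from -0.184 to 0.0422. In Blebb. against MS, Trp53 ranged from -0.0837 to 0.164 and Gadd45a from -0.191 to 0.119. In Blebb. against CTL, Trp53 ranged from -0.111 to 0.163, Ccng1 from -0.389 to 0.255, Bax from -0.0384 to 0.164, Bbc3 from -0.0546 to 0.379 and Gadd45a from -0.254 to 0.0548.

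The deviations of same-numbered libraries had no common direction (r of 9 pairs from -0.785 to 0.835, with 2 over 0.1). Since 1 component held 70.4% of the variance, this cannot exclude a pairing by replicate number. With a replicate block 0 members passed. With 3 libraries a group and no known depth, the intervals of Mdm2 and Ccng1 do not exclude a doubling in MS against CTL.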
